A study of Mus musculus with 13 samples.

Results

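Integrins are receptors made of 1 alpha and 1 beta chain that hold cells to other cells and to the extracellular matrix. On T cells, αL with β2 (LFA-1) binds the ICAM proteins of antigen-presenting cells and vessels, and α4 pairs with β1 for VCAM-1 and fibronectin or with β7 for the mucosal addressin MAdCAM-1. αE with β7 binds E-cadherin of epithelium, α6 with β1 binds laminin, and αv pairs with β3 for vitronectin and osteopontin or with β8 to release active TGF-β from its latent complex. The mRNA of 10 of these chains (Itga4, Itga6, Itgae, Itgal, Itgav, Itgb1, Itgb2, Itgb3, Itgb7 and Itgb8) is described here. They were matched by gene symbol, 10 of 10, among 55774 gene entries, and 9 of them passed the filter on low counts that left 15781 genes for testing. Itgb8 did not pass.

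The T cells were naive splenic CD4+ cells of female BDC2.5 mice, which carry the Tcra and Tcrb transgenes of a diabetogenic T cell clone on the NOD/ShiLtJ background. A first group of 5 libraries held such cells after 96 hours with islet macrophages of NOD mice given 1 low dose of streptozotocin (STZ), a toxin of pancreatic beta cells. A second group of 4 held cells after the same time with islet macrophages of NOD mice given control buffer, and 4 further libraries held T cells alone. Donors of macrophages were 4 weeks old at injection, and islet harvest followed 10 days later, at 5.5 weeks, with magnetic beads used to enrich the macrophages. T cells were recovered from co-culture by sorting for viability, CD45, Thy1.2 and CD4. All 3 groups share the BDC2.5 receptor and the NOD background. Whether the cells alone spent time in culture is not in the labels, so the step from them to a co-culture joins time in culture, antigen and macrophages. In bulk RNA, fewer cells of a type and less RNA per cell cannot be told apart.

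The libraries held 33398984 to 58827796 estimated counts in STZ co-cultures, 30600523 to 61267763 in control co-cultures and 17312119 to 39775134 in cells alone. The labels call the libraries of each group biological replicates, without saying which came from separate animals or cultures. The p-values therefore measure the spread between these libraries, which may be technical in part. The labels name 2 batch days. Day 1 held STZ replicates 1 and 5, control replicates 1, 2 and 4 and all 4 libraries of cells alone, and day 2 held STZ replicates 2, 3 and 4 and control replicate 3. All 7 T cell markers were present in each group, at a summed 6708 to 9133 CPM (counts scaled to a common library size) in STZ co-cultures, 8629 to 15254 in control co-cultures and 5579 to 11071 in cells alone. All 13 macrophage markers had a count in the STZ co-cultures, with sums of 22.4 to 112.7 CPM. In control co-cultures 12 of 13 did (Mertk was at 0), with sums of 7.13 to 11.3 on day 1 and 58.3 on day 2. In cells alone 12 of 13 did (Cd14 was at 0), with sums of 2.95, 4.53, 13.1 and 9.92 in replicates 1 to 4. Itgam, an integrin gene named after its values were seen, supplied 0.184, 2.31, 11.8 and 6.70 CPM of these. In control co-cultures of day 1 Itgam supplied 2.25 to 2.34 CPM. Of its exon bases 68.7% are shared with another gene, Gm49368. Of 8 islet endocrine markers, 7 had a count in STZ co-cultures (Ppy was at 0), 5 in control co-cultures (Sst, Ppy and Pyy were at 0) and 1, Ins2, in cells alone. Their sum was 154 and 114 CPM in STZ replicates 2 and 4 and at most 3.24 in every other library. Without STZ replicates 2 and 4, the counts of integrin genes that passed the test in each group comparison were the same as with them.

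Itga4 lies on chromosome 2 (79255426 to 79333123, plus strand, GRCm38) and Itgb7 on chromosome 15 (102215995 to 102231944, minus strand). Their promoters are shown because the chains form 1 receptor, and Itga4 passed the test against cells alone in both co-cultures while Itgb7 passed in neither, a difference between the genes that was not tested. Each window runs from 250 bases before to 50 bases after the gene start in RefSeq (GRCm38.p6), at chr2:79255176-79255475 on the plus strand and chr15:102231886-102232185 on the minus strand. Capitals mark CACCC or its reverse complement GGGTG, the core bound by KLF factors, a family that includes KLF2, a regulator of trafficking receptors in resting T cells.
Itga4: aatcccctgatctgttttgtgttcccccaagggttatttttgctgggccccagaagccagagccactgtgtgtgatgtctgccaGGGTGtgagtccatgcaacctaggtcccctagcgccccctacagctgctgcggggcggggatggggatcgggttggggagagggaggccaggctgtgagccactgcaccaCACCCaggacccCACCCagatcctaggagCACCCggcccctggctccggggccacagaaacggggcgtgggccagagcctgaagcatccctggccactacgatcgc
Itgb7: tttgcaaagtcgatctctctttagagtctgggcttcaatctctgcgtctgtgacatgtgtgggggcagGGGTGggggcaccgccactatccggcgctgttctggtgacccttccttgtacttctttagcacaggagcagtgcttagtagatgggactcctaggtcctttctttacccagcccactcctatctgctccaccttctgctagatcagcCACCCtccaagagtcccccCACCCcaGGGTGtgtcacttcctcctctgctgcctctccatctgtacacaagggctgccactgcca

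Counting both strands, the Itga4 and Itgb7 windows held 4 matches each. Of 32851 promoter windows of the same length, 57.5% held at least 1 match and 3.1% held at least 4. Of the 10 genes, 5 had a window in the table: Itgb8 had 3 matches, Itgb1 had 2 and Itgav had 1. The RUNX core TGTGGT was found once in Itga4, where its reverse complement overlaps a CACCC, and in none of the other 4 windows, against 16.8% of all windows. The ETS core GGAA was in all 5, against 96% of all windows. These matches describe the sequence and are no evidence that a factor is bound.

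In a test across all genes, no integrin gene passed between STZ-macrophage and control-macrophage co-culture. Of the 9 tested genes 0 passed, against 0.323% of all genes in that comparison, 0.152% higher and 0.171% lower (edgeR quasi-likelihood test adjusted for batch day, threshold 0.05 on the p-value corrected by Benjamini-Hochberg). DESeq2 and voom also called 0, and 1 gene, Itga6, had an unadjusted p under 0.05, against 22.8% of all genes. The median log2 fold change of the 9 was 0.05, beside -0.13 over all genes, and their median size without sign was 0.28, beside 0.56. In none of the 9 were the CPM of the 2 co-cultures free of overlap, a state reached by 7.55% of all genes.

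Both co-cultures were set apart from the cells alone by a larger change. In the control-macrophage co-culture 6 of 9 genes passed the test, against 45% of all genes, with 4 higher (Itgal, Itgb2, Itgae and Itgb3; all genes 23.1%) and 2 lower (Itga4 and Itga6; all genes 22%). In the STZ-macrophage co-culture the same 6 genes passed in the same directions, against 43.1% of all genes, 20.8% higher and 22.3% lower. An unadjusted p under 0.05 was reached by 51.2% of all genes with STZ and 52.6% with control macrophages. These 2 comparisons share the 4 libraries of cells alone. The median size without sign was 1.35 with STZ macrophages, beside 1.13 over all genes, and 1.53 with control macrophages, beside 1.09, on the log2 scale. CPM of the groups did not overlap for 5 genes between STZ co-culture and cells alone and for 7 between control co-culture and cells alone, against 39.6% and 39.8% of all genes.

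**Figure D1:**
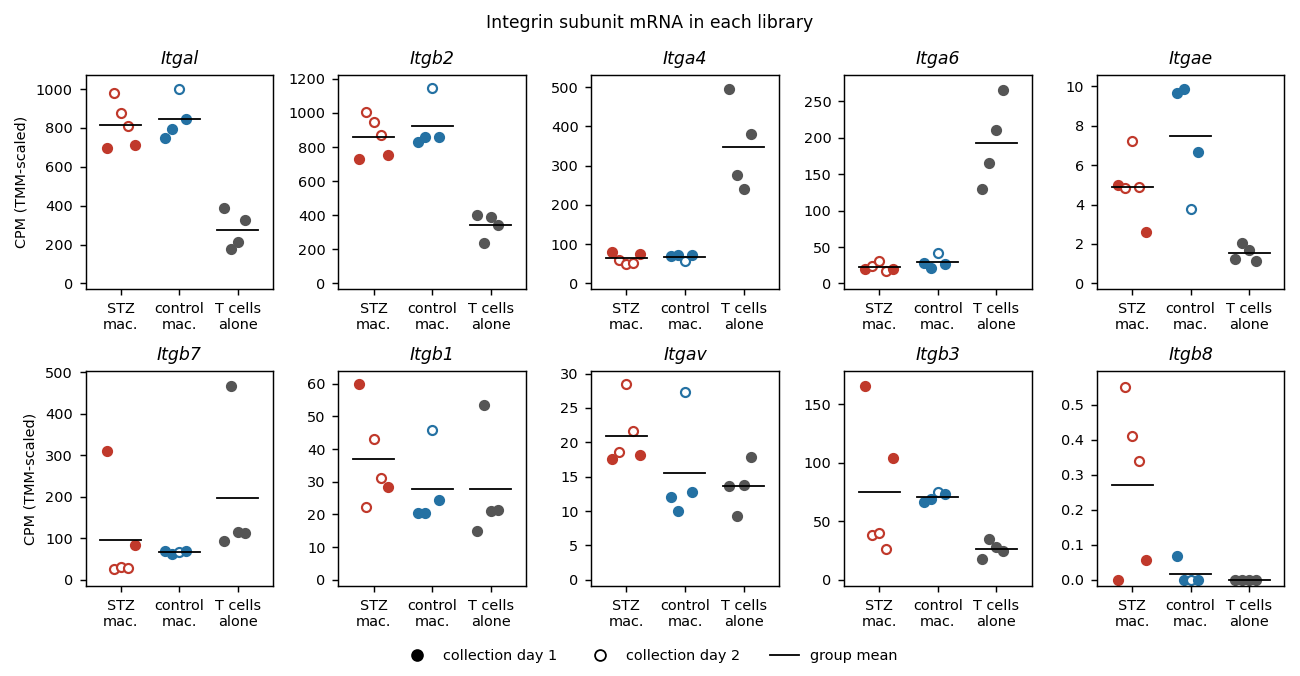
CPM (TMM-scaled) of each of the 10 integrin genes, with 1 point per library, filled for batch day 1 and open for batch day 2, and a line at the group mean. Itgal and Itgb2 are higher and Itga4 and Itga6 lower in every co-culture than in any library of cells alone, while Itgb3 and Itgb7 split by day within the STZ co-cultures.

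The chains of LFA-1, which steadies the contact between a T cell and the cell presenting antigen, rose together. Itgal, encoding αL (chromosome 7, 127296260 to 127335138, plus strand), was at 699, 982, 877, 809.8 and 712 CPM in STZ replicates 1 to 5, at 747, 793, 1003 and 845 in control replicates 1 to 4 and at 387, 178, 213 and 327 in the cells alone. Every co-culture was above every library of cells alone. The log2 fold change over cells alone was 1.35 (SE 0.24, adjusted p = 6.81e-04) with STZ macrophages and 1.53 (SE 0.23, adjusted p = 1.65e-04) with control macrophages.

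Itgb2, encoding the β2 chain shared by the leukocyte integrins (chromosome 10, 77530252 to 77565708, plus strand), was at 729, 1007, 946, 871 and 751 CPM in STZ co-cultures, at 832, 857, 1144 and 860.0 in control co-cultures and at 404, 237, 389 and 343 in cells alone. It was above cells alone by 1.09 log2 units (SE 0.18, adjusted p = 4.66e-04) with STZ and by 1.32 (SE 0.17, adjusted p = 6.22e-05) with control macrophages. Between the co-cultures the differences were -0.23 for Itgb2 (95% interval -0.56 to 0.10) and -0.17 for Itgal (-0.60 to 0.26). The sign of Itgal turned to 0.03 when libraries were scaled by their totals alone. Per kilobase of exon, the ratio of Itgal to Itgb2 lay between 0.41 and 0.46 in all 9 co-cultures and between 0.25 and 0.45 in the 4 libraries of cells alone.

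Itga4, encoding α4, fell in both co-cultures. It was at 80.3, 60.8, 49.6, 51.7 and 75.9 CPM with STZ macrophages, at 68.7, 71.1, 57.6 and 71.8 with control macrophages and at 494, 276, 239 and 382 in cells alone. The highest co-culture was far below the lowest library of cells alone. The log2 fold change was -2.21 (SE 0.24, adjusted p = 1.63e-05) with STZ and -2.26 (SE 0.23, adjusted p = 7.07e-06) with control macrophages. The 2 co-cultures differed by 0.05 (95% interval -0.35 to 0.46). Of its exon bases 8.04% lie under an antisense gene, Cerkl, and the library kit did not mark the strand, so those reads cannot be told apart.

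Itga6, encoding α6 (chromosome 2, 71745616 to 71858416, plus strand), fell as well. It was at 19.6, 23.3, 30.7, 16.6 and 20.2 CPM with STZ macrophages, at 28.7, 20.8, 42.4 and 27.3 with control macrophages and at 129, 166, 210.1 and 266 in cells alone. The log2 fold change was -3.39 (SE 0.30, adjusted p = 3.3e-06) with STZ and -2.83 (SE 0.28, adjusted p = 7.13e-06) with control macrophages. Itga6 was -0.55 log2 units (95% interval -1.05 to -0.06, unadjusted p = 0.046, adjusted p = 0.214) in STZ against control co-cultures, with overlapping values, and -0.36 on day 1 and -0.85 on day 2.

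Itgae, encoding αE, the chain that marks T cells lodged in epithelium (chromosome 11, 73090583 to 73147446, plus strand), was the scarcest of the tested chains in cells alone. It was at 4.97, 4.84, 7.25, 4.87 and 2.63 CPM with STZ macrophages, at 9.64, 9.86, 3.76 and 6.66 with control macrophages and at 1.26, 2.04, 1.68 and 1.14 in cells alone. All co-cultures lay above all libraries of cells alone, by 1.71 (SE 0.49, adjusted p = 0.0135) with STZ and 2.30 (SE 0.43, adjusted p = 9.08e-04) with control macrophages on the log2 scale. Without STZ replicate 1 the first of these no longer passed (adjusted p = 0.0643). On day 1 the STZ libraries, at 4.97 and 2.63 CPM, were below the control libraries, at 9.64, 9.86 and 6.66, and on day 2 those of the STZ co-culture, at 4.84 to 7.25, were above the only control library, at 3.76. The difference between the days was 1.78 log2 units (SE 0.76, unadjusted p = 0.0381, adjusted p = 0.456). Regulatory T cells are known to carry αE, and the 5 markers of that type summed to 2007 to 3262 CPM with STZ macrophages, 1855 to 4541 with control macrophages and 85.2 to 176 in cells alone. In the cells alone Il2ra, the gene of the IL-2 receptor chain that activated T cells share with regulatory ones, was at 0 in every library. With STZ macrophages Il2ra was at 1392 to 2515 CPM and with control macrophages at 1184 to 3316, most of the sum in every co-culture. Foxp3, which defines regulatory T cells, was at 5.29, 11.6, 18.8, 20.2 and 6.85 CPM in STZ replicates 1 to 5, at 107, 54.5, 15.0 and 59.3 in control replicates 1 to 4 and at 0.498 to 2.00 in cells alone. Their part in the level of Itgae was not tested.

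**Figure D2:**
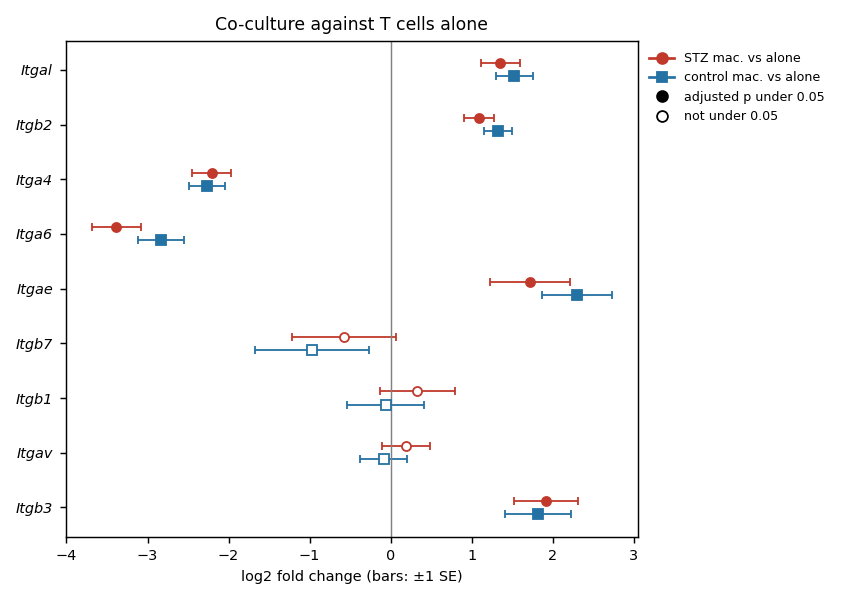
Log2 fold change (x axis, bars of 1 SE) of the 9 tested integrin genes in STZ-macrophage (circles) and control-macrophage (squares) co-culture over cells alone, filled where the adjusted p is under 0.05. Itgal, Itgb2, Itgae and Itgb3 lie right of 0 and Itga4 and Itga6 left of it, in both co-cultures.

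Itgb7, encoding the partner of α4 and αE, did not pass in either comparison with the cells alone. It was at 311, 27.0, 31.9, 29.1 and 83.6 CPM in STZ replicates 1 to 5, at 70.1, 62.1, 66.2 and 69.6 in control replicates 1 to 4 and at 94.1, 466, 115 and 112 in cells alone. The control co-cultures were tightly grouped and all below the cells alone, whereas the STZ co-cultures spread over both other groups. The log2 fold change over cells alone was -0.57 (SE 0.65, adjusted p = 0.497) with STZ and -0.97 (SE 0.71, adjusted p = 0.28) with control macrophages. An alternative added after the data were seen compared day 1 means in the model with 1 mean per group and day. All 13 libraries were in that fit. The value was 0.00 for STZ macrophages and -1.55 (adjusted p = 0.0473) for control macrophages. Without STZ replicate 1 the STZ co-culture stood at -1.76 (adjusted p = 0.0406), and without replicate 2 of the cells alone at 0.52 (adjusted p = 0.464). The control co-culture stood at -0.085 (adjusted p = 0.922) without replicate 2 of the cells alone, at -1.47 (adjusted p = 0.0561) without control replicate 3 and at -1.72 (adjusted p = 0.015) in the authors' adjusted log2 table.

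Per kilobase of exon, the ratio of Itga4 to Itgb7 was 0.051, 0.447, 0.308, 0.352 and 0.180 in STZ replicates 1 to 5, 0.172 to 0.227 in control co-cultures and 0.117 to 1.04 in cells alone. The ratio of Itgae to Itgb7 was 0.0097 to 0.137 in STZ co-cultures, 0.034 to 0.096 in control co-cultures and at most 0.0088 in cells alone, so it was higher in every co-culture than in any library of cells alone. It was 0.101 to 0.137 in the 3 STZ libraries of day 2 and 0.0097 and 0.0190 in those of day 1.

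Itgb1, encoding the β1 chain that α4 and α6 share with many matrix receptors (chromosome 8, 128685654 to 128733200, plus strand), did not pass. It was at 59.8, 22.1, 43.2, 31.0 and 28.5 CPM with STZ macrophages, at 20.3, 20.5, 45.9 and 24.4 with control macrophages and at 14.9, 53.5, 20.9 and 21.3 in cells alone. The 3 groups overlapped, and the value over cells alone was 0.33 (SE 0.47, adjusted p = 0.596) with STZ and -0.06 (SE 0.47, adjusted p = 0.924) with control macrophages. Without replicate 2 of the cells alone, whose value was the highest of its group, the first became 1.07 (adjusted p = 0.0479), and without STZ replicate 1 it became -0.29 (adjusted p = 0.678).

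Levels of Itgb1 and its partners were also set against each other. Per kilobase, the ratio of Itga4 to Itgb1 was 0.335 to 0.802 in STZ co-cultures, 0.366 to 1.01 in control co-cultures and 1.5 to 9.67 in cells alone. The ratio of Itga6 to Itgb1 was 0.148 to 0.476 in STZ co-cultures, 0.418 to 0.638 in control co-cultures and 1.40 to 5.64 in cells alone. No co-culture reached the lowest ratio of the cells alone in either case.

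Itgav, encoding αv (chromosome 2, 83724397 to 83806916, plus strand), was at 17.6, 18.6, 28.5, 21.7 and 18.2 CPM with STZ macrophages, at 12.0, 10.1, 27.2 and 12.7 with control macrophages and at 13.6, 9.33, 13.8 and 17.9 in cells alone. It passed in neither comparison with the cells alone, with 0.19 (SE 0.30) for STZ and -0.09 (SE 0.29) for control macrophages. Between the co-cultures the difference was 0.28 (95% interval -0.25 to 0.80). On day 1 both STZ libraries were above the 3 control libraries (0.62, unadjusted p = 0.0785), and on day 2 control replicate 3 lay within the STZ range. The highest Itgav values, in STZ replicate 3 and control replicate 3, came with macrophage marker sums of 105.6 and 58.3 CPM, while STZ replicate 4, with the highest sum, 112.7 CPM, had Itgav at 21.7 CPM. Their part was not tested. An antisense gene, Gm13684, covers 5.9% of the exon bases.

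Itgb3, encoding the β3 chain of the vitronectin receptor (chromosome 11, 104608000 to 104670476, plus strand), passed as higher than in the cells alone in both co-cultures. It was at 166, 38.1, 40.2, 26.5 and 104 CPM in STZ replicates 1 to 5, at 66.9, 68.8, 74.8 and 73.0 in control replicates 1 to 4 and at 17.6, 34.5, 27.9 and 24.6 in cells alone. The control co-cultures lay within a narrow band, with the STZ libraries of day 1 above it and those of day 2 below it. The log2 fold change over cells alone was 1.92 (SE 0.40, adjusted p = 0.00192) with STZ and 1.82 (SE 0.41, adjusted p = 0.00309) with control macrophages. STZ libraries averaged 135 CPM on day 1 and 34.9 on day 2, beside 26.1 in the cells alone, which are all of day 1. STZ replicate 4 was inside the range of the cells alone. The fit takes a day shift common to both co-cultures, although the control co-cultures showed little of it. The STZ value therefore leans on the STZ libraries of day 1.

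Over both days the 2 co-cultures differed in Itgb3 by 0.10 log2 units (95% interval -0.59 to 0.80). STZ minus control was 0.96 (SE 0.31, unadjusted p = 0.00895, adjusted p = 0.179) on day 1 and -1.10 (SE 0.37, unadjusted p = 0.0122, adjusted p = 0.226) on day 2. The change between days was -2.06 (SE 0.48, unadjusted p = 0.00112). It missed the threshold in edgeR (adjusted p = 0.248) and passed it in DESeq2 (-2.09, adjusted p = 0.0136). Day 2 has 1 control library, which is taken to vary like the others.

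**Figure D3:**
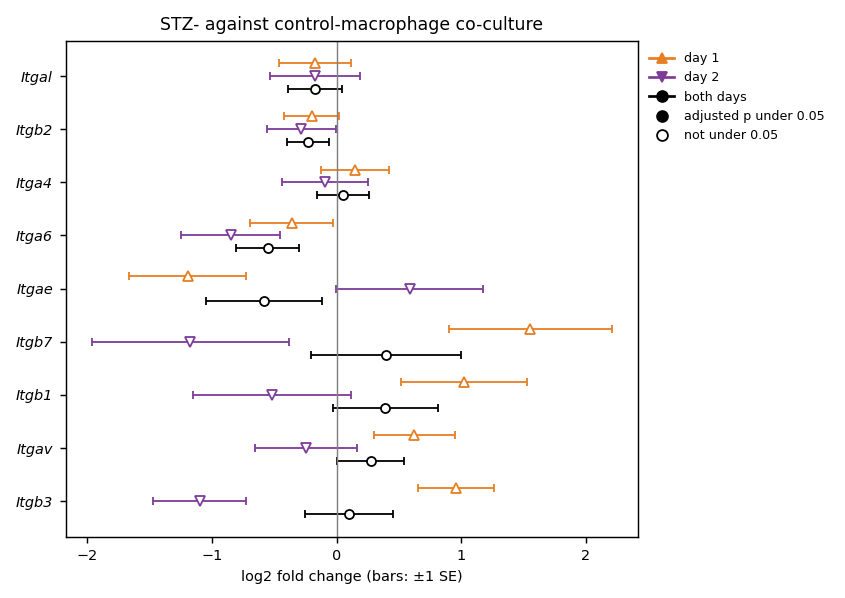
Log2 fold change of STZ-macrophage over control-macrophage co-culture (x axis, bars of 1 SE) for the 9 tested integrin genes. Values are within day 1 (triangles pointing up), within day 2 (triangles pointing down) and over both days (circles). All symbols are open, since no value passed an adjusted p of 0.05, and Itgb3, Itgb7, Itgb1, Itgav, Itgae and Itga4 have opposite signs on the 2 days.

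Across the 9 tested genes, 0 passed within day 1 (background 0.215%, with 0.171% higher and 0.0444% lower), 0 within day 2 (0%) and 0 for the difference between days (0.00634%). The genes with an unadjusted p under 0.05 numbered 3 on day 1 (Itgb3, Itgae and Itgb7), 1 on day 2 (Itgb3) and 3 for the difference (Itgb3, Itgb7 and Itgae), against 16.3%, 14% and 9.82% of all genes. DESeq2 called 1, 0 and 1, in each case Itgb3. For Itgb7, STZ minus control was 1.55 (SE 0.65, unadjusted p = 0.0357) on day 1 and -1.17 (SE 0.79, unadjusted p = 0.165) on day 2, a change of -2.73 (SE 1.02, unadjusted p = 0.0206, adjusted p = 0.382). Without replicate 2 of the cells alone, which belongs to neither co-culture, edgeR called Itgb3 (1.13, adjusted p = 0.0308) and Itgb7 (1.73, adjusted p = 0.0268) on day 1. Without STZ replicate 1 the day 1 values were 0.58 (adjusted p = 0.878) for Itgb3 and 0.32 (adjusted p = 0.945) for Itgb7.

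For day 2 against day 1 over both co-cultures, 0 of 9 genes passed in edgeR (background 3.15%, with 2.1% higher and 1.05% lower), 4 had an unadjusted p under 0.05 (background 28.9%) and DESeq2 and voom each called 1. The 4 were Itgb3 (-1.10), Itgb7 (-1.59), Itgav (0.71) and Itgb2 (0.38), with adjusted p values of 0.0809, 0.121, 0.11 and 0.156. Without replicate 2 of the cells alone 3 genes were called, Itgb3, Itgb7 and Itga4, and without control replicate 3 only Itgb3 (-2.10, adjusted p = 0.0186).

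Itgb8, encoding the β8 chain through which αv frees active TGF-β (chromosome 12, 119158022 to 119238802, minus strand), was detected almost only with STZ macrophages. Its counts were 0, 29, 14, 11 and 2 in STZ replicates 1 to 5, 2, 0, 0 and 0 in control replicates 1 to 4 and 0 in all 4 libraries of cells alone. The 3 STZ libraries of day 2 held 54 of the 56 STZ counts, while the control library of day 2 had none. Over pooled libraries the STZ co-culture stood at 0.286 CPM, 21.8-fold above the control co-culture (exact 95% interval 5.77 to 185, counting error only) and at least 12.8-fold higher than the cells alone (3 counts over the whole group taken as its floor). In a single library 3 counts are worth 0.0493 to 0.133 CPM, and a count of 0 allows that much. With genes of low count kept in the edgeR fit, STZ over control was 2.14 with an adjusted p of 0.721 (DESeq2 2.27, unadjusted p = 0.251), and within day 2 it was 7.06 (unadjusted p = 0.0707, adjusted p = 0.841). Where Itgb8 passed the filter with 1 library left out, the value over both days lay between 0.51, without control replicate 3 (adjusted p = 0.921), and 5.17, without control replicate 1 (unadjusted p = 0.0258, adjusted p = 0.266). None of these fits passed the threshold between STZ and control co-culture. Macrophage marker sums in STZ replicates 1 to 5 were 22.4, 29.5, 105.6, 112.7 and 27.6 CPM. Control replicate 3, with no Itgb8 count, had a sum of 58.3 CPM. Islet endocrine sums in STZ replicates 1 to 5 were 0.686, 154, 3.24, 114 and 0.693 CPM. The part of macrophage and islet transcripts in the Itgb8 counts was not tested.

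Corrected for exon length, β2 had the highest mean of all chains in each group. Itgb2 averaged 282 ± 39.5 CPM per kb in STZ co-cultures (SD, n = 5), 303 ± 48.4 in control co-cultures and 112 ± 24.7 in cells alone (n = 4 each). Itgal came next in both co-cultures, at 124 ± 18.0 CPM per kb with STZ and 129 ± 16.9 with control macrophages, and was at 42.0 ± 14.9 in cells alone. There Itgb7 had a higher mean, 71.0 ± 64.9, which replicate 2 carried, the library where Itgb7 (168 CPM per kb) was also above Itgb2 (77.6).

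The order below these chains differed between co-culture and cells alone. In STZ co-cultures the level per kb was 34.8 ± 44.1 for Itgb7, 12.7 ± 10.1 for Itgb3, 9.05 ± 3.65 for Itgb1, 4.56 ± 0.995 for Itga4, 2.45 ± 0.594 for Itga6, 1.95 ± 0.422 for Itgav and 1.07 ± 0.357 for Itgae. Control co-cultures had the same order down to Itga6 at 3.30 ± 1.01, then Itgae at 1.63 ± 0.628 and Itgav at 1.44 ± 0.735. The cells alone had Itga4 at 24.9 ± 8.21 and Itga6 at 21.4 ± 6.53, above Itgb1 at 6.78 ± 4.28 and Itgb3 at 4.43 ± 1.19, with Itgav at 1.27 ± 0.326 and Itgae at 0.334 ± 0.090 CPM per kb. Some neighbours in these orders overlapped over libraries and others did not. In STZ co-cultures those that did not were Itgb2 with Itgal, Itga4 with Itga6 and Itgav with Itgae. In control co-cultures Itgb2, Itgal, Itgb7 and Itgb3 were each clear of the chain below, as was Itga6 of Itgae. In cells alone Itga6 was clear of Itgb1, Itgb3 of Itgav and Itgav of Itgae. The ranges of all other neighbours overlapped. All chains were measured in the same libraries, so overlapping ranges do not show that chains were alike within a library.

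**Figure D4:**
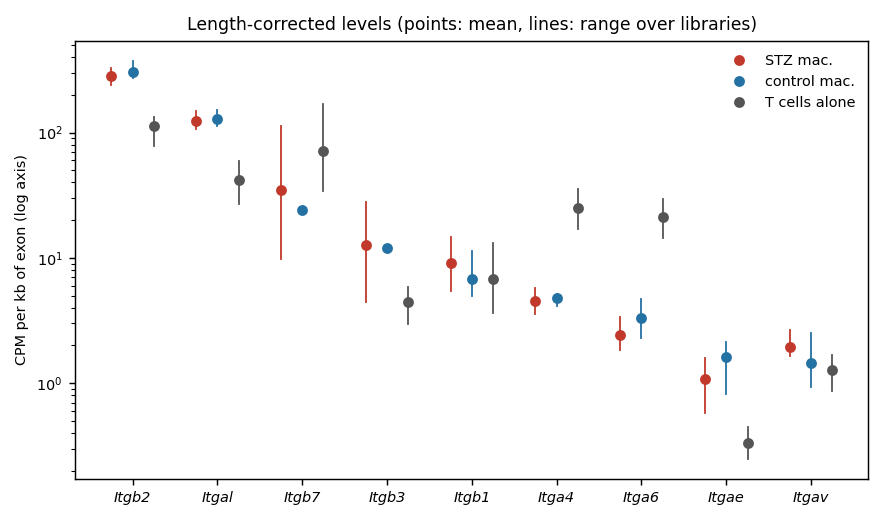
Level of 9 integrin chains in CPM per kb of exon (y axis, log scale), as the mean (point) and the range over libraries (line) in STZ-macrophage co-culture, control-macrophage co-culture and T cells alone. Itga4 and Itga6 are near 20 to 25 in cells alone and below 6 in every co-culture, and Itgb2 has the highest mean in each group.

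Among the 16 other integrin subunit genes, 7 were tested. Between STZ and control co-culture edgeR called 0, 3 had an unadjusted p under 0.05, DESeq2 called 2 and voom 1. Against cells alone 1 was higher and 1 lower with STZ macrophages, and 0 were higher and 2 lower with control macrophages, 28.6% of the list in each, beside 43.1% of all genes with STZ and 45% with control macrophages. Itga7, encoding the laminin-binding α7 chain, was at 39.7, 1.89, 1.95, 1.76 and 42.5 CPM in STZ replicates 1 to 5, at 4.93, 4.27, 2.22 and 3.56 in control co-cultures and at 248, 129, 102 and 133 in cells alone. Its log2 fold change was -2.57 (SE 0.58, adjusted p = 0.00333) with STZ and -4.42 (SE 0.71, adjusted p = 3.02e-04) with control macrophages. Within day 1 it was the only integrin gene called between the co-cultures, 3.27 higher with STZ macrophages (SE 0.34, adjusted p = 0.00551). STZ against control over both days was 1.84 (SE 0.57, adjusted p = 0.149) in edgeR, and it passed in DESeq2 (1.89, adjusted p = 0.0374), in voom and without control replicate 3 (3.42, adjusted p = 0.00394). Itga7 stood 3.00 lower on day 2 than on day 1 (SE 0.60, adjusted p = 0.034), a call lost without any 1 STZ library or control replicate 1 or 2 (adjusted p = 0.0653 to 0.171), without STZ replicates 2 and 4 together (adjusted p = 0.232) and with the replicate number as a block (-2.13, adjusted p = 0.787). In the authors' adjusted log2 table, where 0 of all genes were called for the days, the sign of Itga7 turned (0.049). STZ replicates 1 and 5 held the highest co-culture values of Itga7, Itgb3 and Itgb7 alike, which was not particular to integrin genes. The adaptor genes Sharpin and Pxn, named after their values were seen, were at 37.9 to 54.7 and 60.4 to 70.3 CPM there. In other co-cultures they reached at most 11.7 and 30.1. The adaptor gene Parvg went the other way, at 228 to 235 there and at least 274 elsewhere. Over all tested genes, deviations of STZ replicates 1 and 5 correlated with those of control replicate 2 (r 0.458 and 0.501).

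Itga2b, the αIIb chain of platelets, had 12, 2, 2, 0 and 8 counts with STZ macrophages, 0, 2, 0 and 0 with control macrophages and 63, 80, 22 and 4 in cells alone, and passed as lower with control macrophages (adjusted p = 0.00207). Of 5 platelet markers, a list that includes Itga2b, 3 had a count in each group, with Gp9 and Ppbp at 0 in both co-cultures and Pf4 and Ppbp at 0 in cells alone. They summed to 0.248 to 2.10 CPM with STZ macrophages, 0 to 0.771 with control macrophages and 0.146 to 4.18 in cells alone, and their part was not tested. Itgb5, another partner of αv, was higher than in cells alone with STZ macrophages (2.69, SE 0.94, adjusted p = 0.034), at 0.147 to 1.64 against 0 to 0.222 CPM. Itgax, the αX chain of dendritic cells and macrophages, had 1, 5, 20, 29 and 2 counts in STZ replicates 1 to 5, 0, 2, 0 and 0 in control co-cultures and none in cells alone, and it was named after its values were seen.

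Of 28 genes that switch integrins on or tie them to the cytoskeleton, 22 were tested. With STZ macrophages 3 rose and 5 fell relative to cells alone, and with control macrophages 4 rose and 7 fell, 11 calls that became 6 with the replicate number as a block. These are 36.4% of the list with STZ macrophages, beside 43.1% of all genes, and 50% with control macrophages, beside 45%. The median log2 fold change was 0.09 with STZ and -0.63 with control macrophages, beside -0.05 and -0.13 over all genes. Parvg, the parvin of blood cells that links integrins to actin, rose by 1.25 (adjusted p = 6.32e-04) with STZ and by 1.72 (adjusted p = 3.4e-05) with control macrophages. Apbb1ip, encoding the RAP1 effector RIAM, fell by 1.61 (adjusted p = 1.8e-04) with STZ and by 1.45 (adjusted p = 2.02e-04) with control macrophages. Lims1, encoding the adaptor PINCH, fell by 1.44 (adjusted p = 1.84e-04) with STZ and by 0.98 (adjusted p = 0.00182) with control macrophages. Rap1a, a small GTPase that activates LFA-1, rose by 0.69 (adjusted p = 0.00413) with control macrophages. It was at 79.9 to 94.4 CPM with STZ macrophages, 73.4 to 102 with control macrophages and 44.8 to 55.7 in cells alone. Fyb, encoding the adaptor ADAP, fell by 1.14 (adjusted p = 5.92e-04) with STZ macrophages. Its CPM were 282 to 330 with STZ macrophages, 390 to 567 with control macrophages and 524 to 833 in cells alone.

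Between STZ and control co-culture 0 of the 22 passed in edgeR and 1 each in DESeq2 and voom, and 5 had an unadjusted p under 0.05. Tln1, encoding talin, the protein that binds β chains to activate them, had the smallest. It was at 558, 97.3, 98.2, 91.3 and 539.7 CPM in STZ replicates 1 to 5, at 125, 172, 40.8 and 85.8 in control replicates 1 to 4 and at 279, 467, 96.6 and 124 in cells alone. The day 1 STZ libraries were far above all other co-cultures, and the difference was 1.76 (SE 0.43, adjusted p = 0.111). Day 2 was lower than day 1 by 2.17 log2 units (SE 0.43, adjusted p = 0.0344). Fyb was at -0.52 (adjusted p = 0.16), Lims1 at -0.46 (adjusted p = 0.19) and Parvg at -0.47 (adjusted p = 0.196).

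Of 22 genes for integrin ligands and counter-receptors, 14 were tested. Relative to cells alone, 9 rose and 1 fell with STZ macrophages and 6 rose and 1 fell with control macrophages. These are 71.4% of the list with STZ macrophages, beside 43.1% of all genes, and 50% with control macrophages, beside 45%. The median log2 fold change was 3.07 with STZ macrophages, beside -0.05 over all genes, and 1.63 with control macrophages, beside -0.13. Icam1, the ligand of LFA-1, rose by 1.31 (adjusted p = 0.00109) with STZ and by 0.86 (adjusted p = 0.00694) with control macrophages, at 78.2 to 119 CPM with STZ and 51.9 to 81.3 with control macrophages against 30.0 to 44.5 in cells alone. Icam2, another ligand of LFA-1, fell by 1.91 (adjusted p = 6.04e-05) with STZ and by 1.40 (adjusted p = 2.88e-04) with control macrophages. Spp1, encoding osteopontin, a ligand of αv and α4 integrins, was at 3.90, 44.9, 12.4, 37.1 and 4.74 CPM in STZ replicates 1 to 5, at 0.896, 1.69, 14.2 and 0.627 in control replicates 1 to 4 and at 0, 0.400, 0 and 0 in cells alone. Spp1 is also a macrophage product. Its highest values, in STZ replicates 2 and 4, came with macrophage marker sums of 29.5 and 112.7 CPM and islet endocrine sums of 154 and 114 CPM, while STZ replicate 3 had sums of 105.6 and 3.24 CPM. The 6 stromal and endothelial markers summed to 1.33 to 13.7 CPM with STZ macrophages, 1.15 to 1.60 with control macrophages and 0 to 0.933 in cells alone. The part of macrophage, islet and stromal RNA in Spp1 and the other ligand genes was not tested.

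Between STZ and control co-culture 0 of the 14 ligand genes passed in edgeR, 1 in DESeq2 and 2 in voom, and 3 had an unadjusted p under 0.05. Lama5, the α5 chain of laminin, came nearest (3.42, SE 0.59, adjusted p = 0.0523), at 6.03, 0.514, 0.973, 0.801 and 3.63 CPM with STZ macrophages against 0.723, 0.263, 0.0617 and 0.429 with control macrophages, and it had no count in cells alone. Thbs1, encoding thrombospondin, stood at 4.93 (adjusted p = 0.148), Icam2 at -0.51 (adjusted p = 0.195) and Spp1 at 1.65 (adjusted p = 0.241). On day 2 Lama5 was lower than on day 1 by 2.71 (SE 0.57, adjusted p = 0.0446).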

How the data were processed

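Bulk RNA was sequenced from 13 libraries of CD4+ T cells as paired-end reads aligned to GRCm38, per the labels' protocols. The template-switching kit does not mark the strand. The submitters' processing notes name DESeq2, and no source used here gives the aligner, counter or annotation. The authors deposited estimated counts per gene without normalization (11.0% of values are not whole), which were rounded here, and log2 values for 12236 genes, adjusted by the authors in a way the sources do not give, which served only as an alternative with limma 3.58.1.

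Counts were tested with edgeR 4.0.16 (R 4.3.3) after TMM scaling and filterByExpr, with terms for group and batch day in 1 fit of all 13 libraries. A second model had 1 mean per group and day. Genes were called at a Benjamini-Hochberg adjusted p under 0.05 over 15781 genes. A standard error is the log2 fold change divided by the root of its F. DESeq2 1.42.0, voom and other scalings, filters and designs were alternatives. The scripts were tested on simulated data. CPM are counts over library total times TMM factor. Exon lengths and gene positions came from GENCODE on GRCm38. Libraries carry no molecular identifiers, so count intervals and floors cover counting error only.

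The integrin genes and lists were chosen with earlier results of these data known. Named were all 10 integrin genes and, of each further list, up to 4 tested genes of smallest unadjusted p in a comparison, plus genes said to be chosen later. The B cell marker list is not reported here.

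Same-numbered libraries of control-macrophage co-culture and cells alone had correlated deviations (r 0.161 to 0.352 in 4 of 4 pairs). Pairs of unlike number reached 0.433, and 2 of 4 libraries correlated best with their own number. These values do not settle a pairing and the labels give none. A fit with the number as a block was therefore run only as an alternative. All tests given without mention of the block are unpaired. The block changed no count among the 9 tested integrin genes. Within groups, 0 library pairs were identical.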

Additional observations from a re-analysis of the deposited data

Results flagged for a closer look

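Among 29 groups of 4 or 5 libraries, 7 held an integrin value whose gap to its nearest neighbour was a larger part of the group's range than Dixon's 95% limit allows. Each such group is 1 gene in 1 condition, and the same 13 libraries supply all of them. Chance flags about 1 in 20 groups of independent, normally distributed values, so that rate is only a rough guide here. Control replicate 3, the only control library of day 2, held 3 of them: Itgav at 27.2 CPM (next 12.7), Itgb1 at 45.9 (next 24.4) and Itgb2 at 1144 (next 860.0). Replicate 2 of the cells alone, the library with the fewest counts, held Itgb7 at 466 (next 115) and Itgb1 at 53.5 (next 21.3). STZ replicate 1 held Itgb7 at 311 (next 83.6). Itgb8 in control replicate 1, at 0.0689 CPM, rests on 2 counts among libraries with none.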

How the results depend on the processing

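In the comparisons with cells alone, 6 or 7 integrin genes were called under every alternative, and Itga4, Itga6, Itgal, Itgb2 and Itgb3 kept their direction and an adjusted p under 0.05 in each. Itgae did so too, except without STZ replicate 1. Between STZ and control co-culture 0 were called under every alternative, while the count over all genes ran between 0 and 2698 against 51. Over all comparisons and alternatives, 1159 values of single integrin genes kept their direction and side of the threshold, 18 passed newly, 1 no longer passed and 73, none of them past the threshold, changed sign. The cause was not tested. Scaling by library totals moved the median of all genes by 0.20 log2 units between STZ and control co-culture, -0.12 and -0.32 for STZ and control co-culture over cells alone and -0.23 for the days, and RLE scaling moved it by 0.10 for STZ over control co-culture and 0.15 for STZ co-culture over cells alone.

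For day 2 against day 1, DESeq2 and voom called 1 integrin gene, the fit of co-cultures alone called 3 and leaving out 1 library gave 0 to 3. DESeq2 called 1 within day 1, where leaving out 1 library gave 0 to 2, and 1 for the difference between days. The changes came without replicate 2 of the cells alone and, for the days, also without control replicate 3. In the further lists, calls for control macrophages against cells alone ran between 5 and 17 for 11 adaptor genes, 3 and 10 for 7 ligand genes and 1 and 5 for 2 other subunits. For STZ macrophages they ran between 5 and 14 for 8 adaptors, 6 and 11 for 10 ligands and 1 and 3 for 2 other subunits.

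Sign changes between control co-culture and cells alone were those of Itgb1, at 0.0094 by RLE, 0.011 by DESeq2, 0.12 by voom, 0.048 without the filter, 0.0065 without the day term, 0.11 with the replicate block and 0.78 in the authors' adjusted log2 table, and of Itgav, at 0.18 without the day term and 0.54 in that table. For STZ co-culture against cells alone Itgb7 turned to 0.10 in a fit of those groups and to 0.0041 from the day 1 means. Between STZ and control co-culture Itgal turned to 0.030 by library totals, 0.023 without the filter and 0.015 in a fit of those groups, Itga4 to -0.079 without the day term and -0.19 with the replicate block, and Itgae to 0.0096 with the block. Within day 2, Itga4 turned to 0.0002 by DESeq2, and without the filter Itga4, Itgal, Itgav and Itga7 turned to 0.18, 0.097, 0.012 and 0.014. Without the filter the difference between days was 0.12 for Itgal and 0.040 for Itgb2.

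For day 2 against day 1, Itgb1 turned to -0.071 by library totals, -0.026 without the filter, -0.018 in co-cultures alone and -0.35 with the replicate block, and Itga4 to 0.027 with the block. In the authors' adjusted log2 table Itga6, Itgal, Itgav, Itgb2, Itgb7 and Itga7 were at -0.18, -0.092, -0.19, -0.10, 0.099 and 0.049 for the days. The replicate block changed no call among the 9 tested integrin genes, and the day call of Itga7 was lost with it (-2.13, adjusted p = 0.787). Between STZ and control co-culture (r -0.202 to 0.474, 3 of 4 pairs over 0.1) and between STZ co-culture and cells alone (r -0.415 to 0.331, 2 of 4) libraries share only a number, and 1 of 4 correlated best with its own in each.

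Leaving out 1 library at a time gave ranges across 0. They were -0.22 to 0.074 for Itgav and -0.28 to 0.48 for Itgb1 in control co-culture over cells alone, and -0.29 to 1.07 for Itgb1 and -1.76 to 0.52 for Itgb7 in STZ co-culture over cells alone. For STZ over control co-culture they were -0.20 to 0.029 for Itgal, -0.061 to 1.19 for Itgb1, -0.26 to 1.12 for Itgb3 and -0.43 to 1.72 for Itgb7, and within day 2 -0.18 to 0.16 for Itga4 and -0.25 to 0.080 for Itgal. For the days they were -0.51 to 0.41 for Itgae and -0.62 to 0.62 for Itgb1, and for the difference between days -0.076 to 0.089 for Itgal and -0.13 to 0.044 for Itgb2. Depth limits Itgb8, with at most 29 counts in a library. Day 2 rests on 1 control library.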
